A study of Mus musculus with 9 samples.

Results

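The T cell receptor alpha and beta V segments are the 115 of 26683 rows of a mouse gene count table whose symbol begins with Trav or Trbv and a number. Of these, 86 are Trav rows on chromosome 14 and 29 are Trbv rows on chromosome 6. The counts come from RNA sequencing of CD4+ Foxp3-YFP+ regulatory T (Treg) cells sorted from the spleens of single mice. The KO group holds 4 EsrrgNf/f.Foxp3YFP-Cre mice, in which the Esrrg gene, encoding the orphan nuclear receptor ERR gamma, is flanked by recombination sites and removed by Cre made from the Foxp3 gene. The WT group holds 5 B6N.Foxp3YFP-Cre mice, which carry the same Foxp3-driven Cre and YFP without the floxed gene. All 9 mice were labelled female and between 2 and 3 months old. The labels do not say whether KO and WT mice were littermates, so genotype and colony cannot be told apart.

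A T cell receptor is a pair of chains, alpha and beta. Each developing T cell in the thymus cuts its DNA and joins 1 V segment to a J segment for the alpha chain, and 1 V segment to a D and a J segment for the beta chain. The join makes the most variable loop that contacts peptide and MHC, while the V segment itself encodes the other two loops. The mix of V segments over many cells is called V segment usage, and in RNA it is read as the share that each segment takes of all counts at its locus. Segments of the mouse alpha locus were copied in large blocks, so many carry near twins marked d or n. Bulk counts show V usage but not which alpha pairs with which beta, the joined loop or the number of clones. In bulk RNA, fewer cells with a segment and less RNA per cell cannot be told apart.

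The ends of the segments the results turn on are shown first, because they show what a read must distinguish. All are written 5′ to 3′ from GENCODE M21 transcripts on GRCm38. The first 3 are the last 45 bases of the most counted Trav segment and of Trbv3 and Trbv16, whose values follow. Capitals mark the letters TGTGC, which hold the codon of the conserved cysteine where the V segment ends and the joined loop begins.
Trav12-2 (chr14:53616870-53616914, plus strand): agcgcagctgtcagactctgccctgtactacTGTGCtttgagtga
Trbv3 (chr6:41048784-41048828, plus strand): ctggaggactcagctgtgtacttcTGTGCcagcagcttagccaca
Trbv16 (chr6:41152186-41152230, plus strand): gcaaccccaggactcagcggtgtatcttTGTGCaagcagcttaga
TGTGC on the coding strand lay in the last 30 bases of 86.4% of the 22 annotated Trbv genes and of 79.6% of the 108 annotated Trav genes. It lay there in 7 of 13 Trbv pseudogenes and in 14 of 20 Trav pseudogenes.

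The Trbv13 segments, known as Vβ8 in the older naming, were the most counted beta family. Their last 90 bases are shown with capitals at the 22 positions where the 3 differ from each other.
Trbv13-1 (chr6:41116379-41116468, plus strand): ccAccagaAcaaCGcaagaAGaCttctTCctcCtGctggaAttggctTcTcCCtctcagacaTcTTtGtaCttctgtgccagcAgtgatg
Trbv13-2 (chr6:41121743-41121832, plus strand): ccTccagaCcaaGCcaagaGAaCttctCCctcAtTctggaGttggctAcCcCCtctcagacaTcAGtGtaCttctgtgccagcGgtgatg
Trbv13-3 (chr6:41130496-41130585, plus strand): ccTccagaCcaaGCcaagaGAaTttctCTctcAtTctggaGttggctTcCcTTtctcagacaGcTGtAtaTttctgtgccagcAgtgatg
The Trav14 segments, known as Vα2 in the older naming, were the most counted alpha family. Its annotated copies Trav14d-1, Trav14d-2, Trav14n-1 and Trav14n-2 have no row in the count table and are not shown. Over the last 120 bases Trav14d-1 and Trav14n-1 are 98.33% identical to Trav14-3. The last 90 bases of the 5 rows present differ at 7 positions, in capitals.
Trav14-1 (chr14:53554469-53554558, plus strand): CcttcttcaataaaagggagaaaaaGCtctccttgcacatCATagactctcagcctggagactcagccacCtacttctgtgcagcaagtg
Trav14-2 (chr14:53641136-53641225, plus strand): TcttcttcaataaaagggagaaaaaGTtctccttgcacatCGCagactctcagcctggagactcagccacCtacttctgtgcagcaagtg
Trav14-3 (chr14:53763605-53763694, plus strand): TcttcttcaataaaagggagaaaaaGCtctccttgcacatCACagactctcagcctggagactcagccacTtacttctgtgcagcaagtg
Trav14d-3-dv8 (chr14:53078956-53079045, plus strand): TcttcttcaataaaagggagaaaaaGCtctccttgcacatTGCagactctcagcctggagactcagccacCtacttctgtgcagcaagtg
Trav14n-3 (chr14:53370486-53370575, plus strand): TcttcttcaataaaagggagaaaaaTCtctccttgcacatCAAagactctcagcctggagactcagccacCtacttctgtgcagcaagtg

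This difference in spacing held across the loci. Every window of 50 bases was found in no other annotated gene for 24 of the 29 Trbv rows, but for only 10 of the 86 Trav rows. Fewer than 50% of the windows were their own in 36 Trav rows and in 1 Trbv row, Trbv5. A read that matches several twins may be dropped or split, and the labels do not state the rule used in counting. Counts of single Trav rows are therefore uncertain, and Trbv rows are better separated. Annotated segments without a row in the count table, most of them Trav copies marked d or n, enter no share, family sum or diversity value.

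The libraries held 15386929 to 17425634 counts in KO mice and 15269014 to 16874301 in WT mice. Treg markers (Foxp3, Il2ra, Ctla4, Ikzf2 and Cd4) summed to 3575 to 3908 CPM (counts scaled to a common library size) in KO and 3684 to 3911 in WT libraries. Esrrg itself had 0 counts in all 9 libraries, so its deletion could not be checked. Plasma cell markers stood higher in some KO mice: all 4 markers were detected, and their sum was 52.8 to 519 CPM in KO and 34.8 to 87.0 CPM in WT libraries. Immunoglobulin genes took 0.299, 0.124, 0.161 and 0.801% of counts in KO 1 to 4, against 0.104% to 0.153% in the 5 WT libraries. The 6 myeloid markers summed to 22.6 to 105 CPM in KO and 18.9 to 60.7 CPM in WT libraries, and the 5 B cell markers to 19.6 to 33.7 CPM in KO and 18.5 to 23.9 CPM in WT libraries. KO 1 and KO 4 had the highest sums of the 9 libraries for all 3 lists, and WT 1 the highest of the WT libraries. KO 4 also held 27 counts of Xist, the RNA of the silenced X chromosome in female cells, against 27355 to 35693 in the other 8 libraries, which goes against its label. Results are given with and without KO 1 and KO 4 where they rest on them. CD8 T cell markers (Cd8a and Cd8b1) summed to 11.9 to 13.9 CPM in KO and 9.84 to 13.6 CPM in WT libraries. Nearly all of that was Cd8b1, as Cd8a alone had 0.26 to 0.56 CPM in KO and 0.30 to 0.63 CPM in WT libraries. The 4 gamma delta T cell markers summed to 10.7 to 16.2 CPM in KO and 14.6 to 18.1 CPM in WT libraries. The part of these other cells in the V segment values was not tested.

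V segment rows took 0.0643% to 0.0726% of all counts. Trbv rows summed to 8313 to 9281 counts in KO and 8862 to 9869 in WT libraries. Trav rows summed to 1848 to 2272 counts in KO and 1745 to 2078 in WT libraries, so the alpha shares are less precise. A filter on low counts left 20 Trbv and 57 Trav rows for testing. These held at least 99.7% of Trbv and 96.5% of Trav counts in every library. Of the 38 rows below the filter, 2 Trbv and 6 Trav rows had no count in any library, and the highest reached 86 counts (Trbv) and 88 counts (Trav) summed over the 9 libraries.

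Beta chain usage was led by the same 10 segments in both genotypes. Trbv13-2 came first with 13.4% ± 0.376 of Trbv counts in KO and 12.5% ± 0.301 in WT mice (SD, n = 4 and 5). Trbv3 followed with 10.9% ± 0.642 in KO and 11.6% ± 0.485 in WT mice. The next 8 by mean share were Trbv2, Trbv15, Trbv19, Trbv16, Trbv13-1, Trbv1, Trbv12-2 and Trbv31, and the top 10 together held 76.6% of Trbv counts. Trbv31 is the segment that lies beyond the constant genes in the opposite orientation. Mean shares of the tested Trbv rows spanned 35.5-fold. Scaled by exon length, Trbv13-2 stayed first at 15.1% and Trbv3 second at 9.92%, while Trbv2 ranked 8 and Trbv19 ranked 10.

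**Figure D1:**
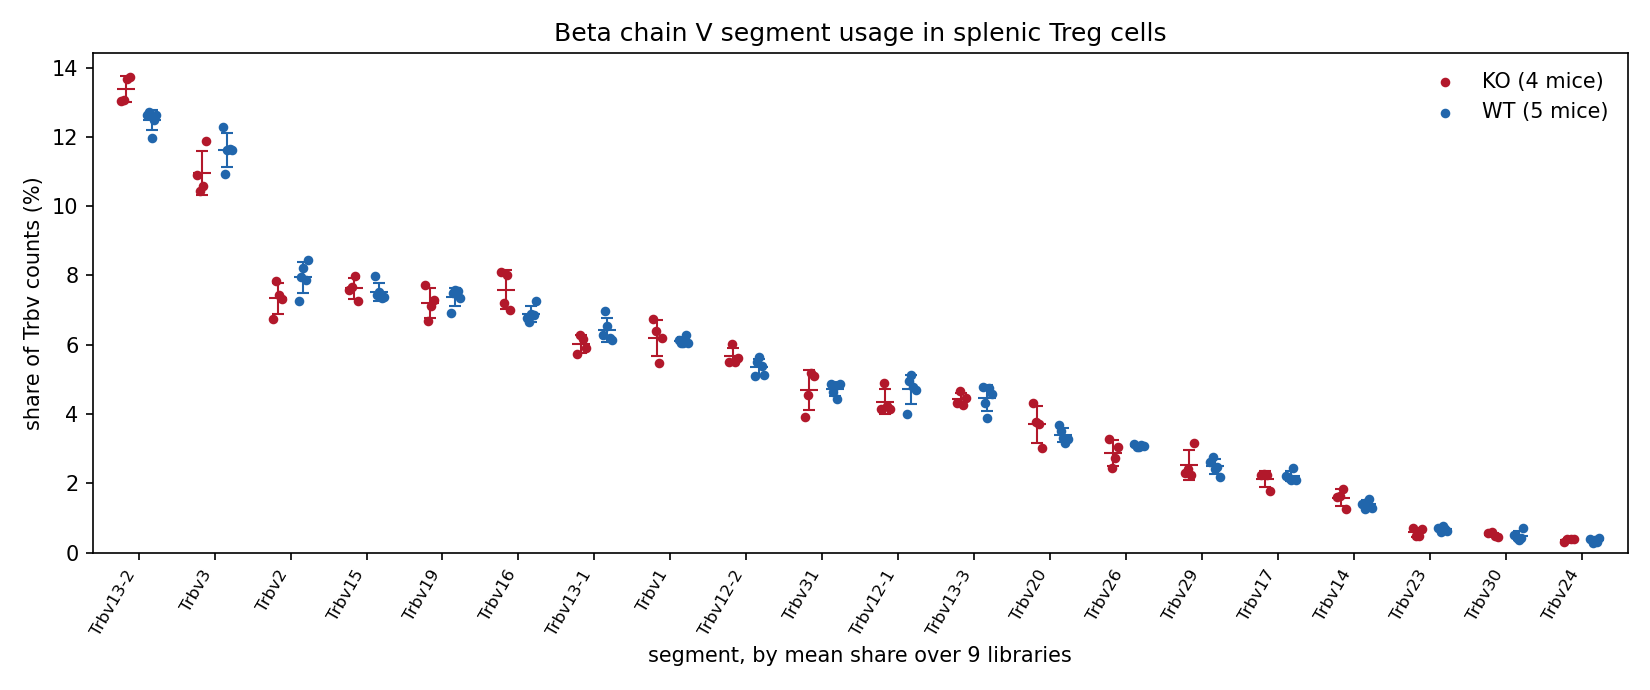
Share of all Trbv counts (percent, vertical axis) for the 20 Trbv segments with the highest mean share, with 1 point per library for KO (red, left of each pair) and WT (blue, right), and mean ± SD. The same 10 segments lead in both groups, and for Trbv13-2 the 4 KO points lie above the 5 WT points.

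Trbv13-2 had shares of 13.03, 13.06, 13.66 and 13.73% in KO 1 to 4, against 12.64, 12.71, 11.97, 12.50 and 12.62% in WT 1 to 5. Every KO share was above every WT share. A single library's share carries a Wilson 95% interval of ± 0.640 to 0.740 percentage points from counting alone. This interval describes 1 library and not the difference between the group means. In a quasi-likelihood fit over all 12738 genes, with V rows scaled to their locus total, the log2 fold change of usage (KO over WT) was 0.10 ± 0.04 (SE, 95% interval 0.02 to 0.18). Its p was 0.0231 before and 0.162 after Benjamini-Hochberg adjustment over all genes by edgeR, so it did not pass the threshold of 0.05. Without KO 1 and KO 4 the log2 fold change was 0.10, with an edgeR adjusted p of 0.401. The neighbouring Trbv13-1 and Trbv13-3 had usage log2 fold changes below 0, with intervals that included it: -0.10 (95% interval -0.21 to 0.02) and -0.01 (-0.16 to 0.13). The 3 Trbv13 rows together took 23.8% ± 0.503 of Trbv counts in KO and 23.4% ± 0.602 in WT mice, with overlapping libraries.

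Trbv16 had shares of 8.11, 7.19, 8.02 and 7.01% in KO 1 to 4, against 6.76, 6.67, 6.89, 6.87 and 7.26% in WT 1 to 5. KO 1 and KO 3 were high, and KO 2 and KO 4 fell inside the WT range, so the groups overlapped. In usage it differed by 0.14 ± 0.06 (SE) on the log2 scale, with an edgeR adjusted p of 0.175. Trbv2 differed in the other direction, at 6.76, 7.84, 7.43 and 7.33% in KO 1 to 4, against 7.27, 7.96, 8.21, 7.88 and 8.44% in WT 1 to 5. These groups also overlapped, and its usage log2 fold change was -0.12 ± 0.06 (SE, edgeR adjusted p = 0.261). Without KO 1 and KO 4 it was -0.06 (edgeR adjusted p = 0.754).

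No V segment passed the test for a change in usage. At an adjusted p of 0.05, edgeR called 0 of the 77 tested segments, beside 3.27% of all genes in the same fit. Genes other than V rows were scaled to library size there, so the percents of all genes are not of usage. The adjusted p of a V row depends on the p values of those genes too and is not an adjustment among V rows alone. At an unadjusted p of 0.05 it marked 4 segments (Trbv13-2, Trbv16, Trav9-2 and Trav14n-3), or 5.2%, beside 21.6% of all genes. DESeq2 called 0 at an adjusted p of 0.05 and marked 3 at an unadjusted p of 0.05, and limma-voom called 0 and marked 4. The absence of calls does not show equal usage, but the intervals bound it. For the 10 most counted Trbv segments the 95% intervals of the log2 fold change all lay between -0.24 and 0.26. For the 10 most counted Trav segments they lay between -0.61 and 0.64. Over all tested rows the median standard error was 0.073 for Trbv and 0.238 for Trav on the log2 scale, and the median log2 fold change of usage was 0.003 for Trbv and -0.001 for Trav.

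**Figure D2:**
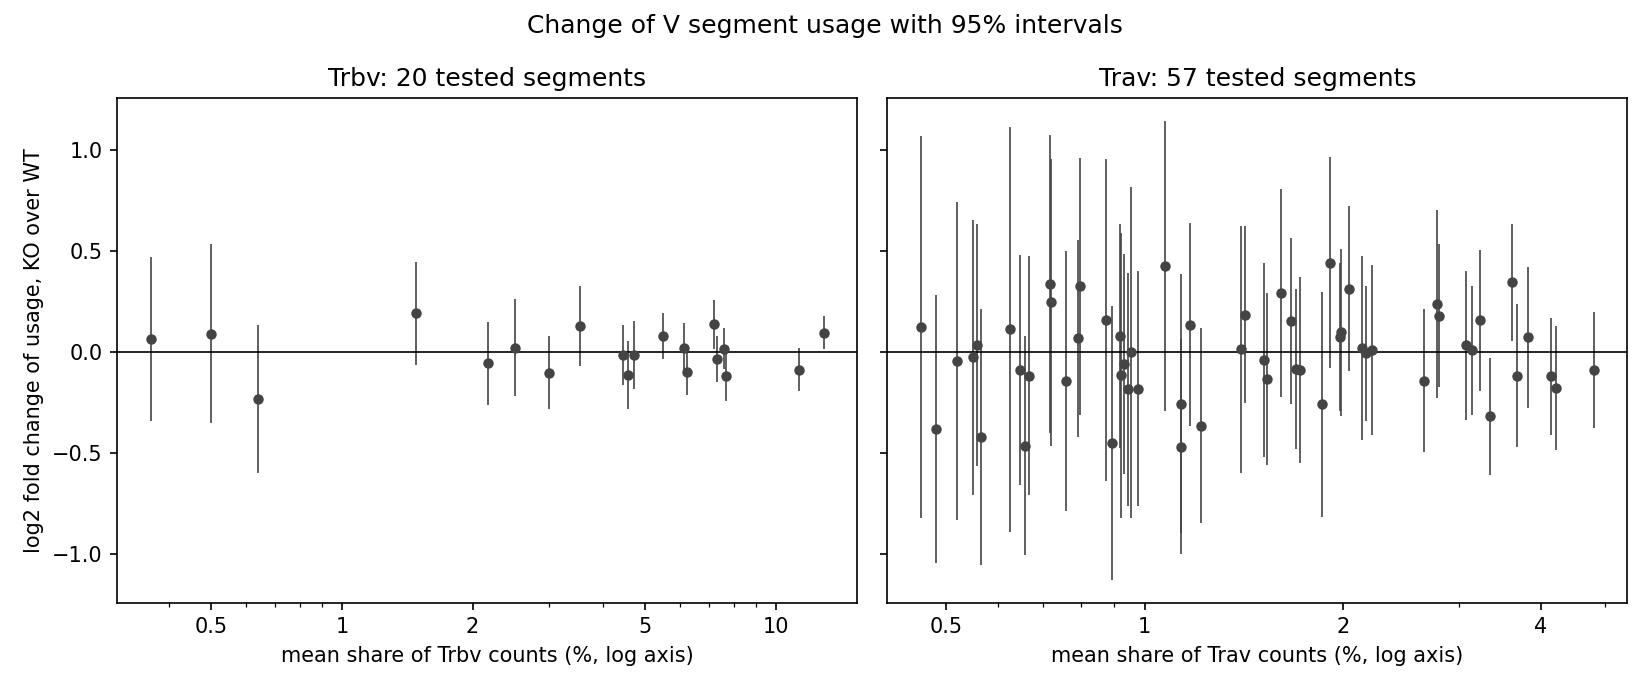
Log2 fold change of usage, KO over WT (vertical axis), with 95% intervals, against the mean share of locus counts (percent, log axis) for the 20 tested Trbv (left) and 57 tested Trav segments (right). Trbv values range from -0.229 to 0.192 with short intervals, and Trav values from -0.466 to 0.443 with intervals that widen at low shares.

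Alpha chain usage was flatter and noisier. Trav12-2 came first with 4.64% ± 0.729 of Trav counts in KO and 4.95% ± 0.474 in WT mice. Trav14-1, Trav3-3, Trav4-4-dv10, Trav14-2, Trav9-2, Trav14n-3, Trav9-4, Trav13-1 and Trav7-4 followed, and the 10 together held 37.1% of Trav counts. By family, the Trav14 rows summed to 14.6% ± 1.149 in KO and 16.4% ± 0.888 in WT mice, with overlapping libraries. Trav7, Trav6 and Trav9 came next. The Trav7 family took 12.4% ± 0.754 in KO and 12.3% ± 1.01 in WT mice.

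**Figure D3:**
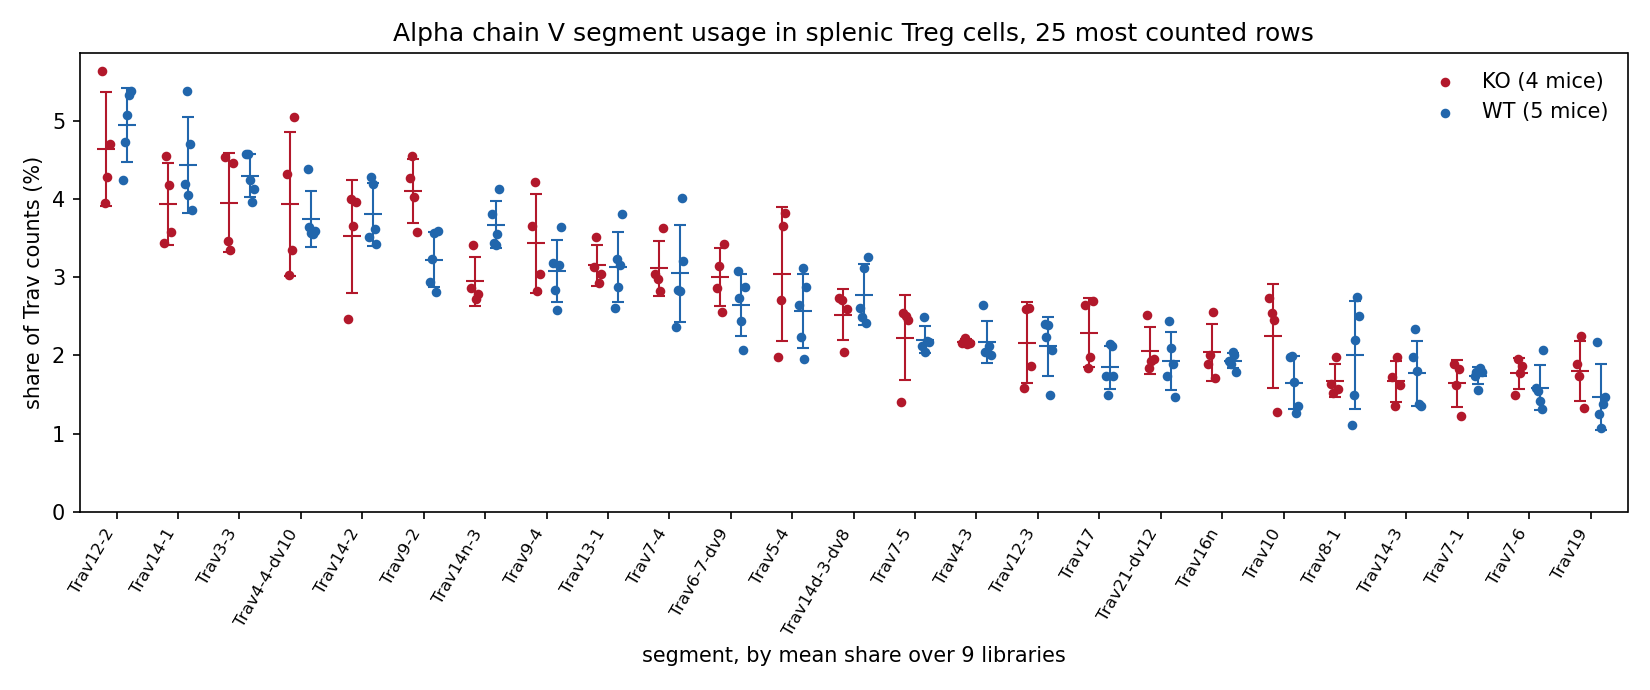
Share of all Trav counts (percent, vertical axis) for the 25 Trav rows with the highest mean share, with 1 point per library for KO (red, left) and WT (blue, right), and mean ± SD. Points of the groups overlap for all but Trav14n-3, whose 4 KO points lie below the 5 WT points.

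Trav9-2 and Trav14n-3 had the largest usage log2 fold changes of the 10 most counted alpha rows. Trav9-2 had shares of 4.27, 4.55, 4.02 and 3.57% in KO 1 to 4, against 2.94, 3.23, 3.56, 2.81 and 3.58% in WT 1 to 5. KO 4 fell just below WT 5, so the groups met at their edges. Its usage log2 fold change was 0.35 ± 0.13 (SE, edgeR adjusted p = 0.162), and 53.3% of its windows were its own, the rest being shared mainly with Trav9n-4. Trav14n-3 had shares of 2.86, 3.41, 2.71 and 2.79% in KO 1 to 4, against 3.80, 3.43, 3.41, 3.55 and 4.13% in WT 1 to 5. The groups touched without overlapping, and its usage log2 fold change was -0.32 ± 0.13 (SE, edgeR adjusted p = 0.194). Without KO 1 and KO 4 it was -0.26 (edgeR adjusted p = 0.567). Counting alone gives a single library's share an interval of ± 0.690 to 0.912 points for Trav14n-3 and ± 0.730 to 0.953 points for Trav9-2. The other alpha rows with the smallest p in each direction were Trav10, Trav17, Trav7-3 and Trav6-5, with usage log2 fold changes of 0.44, 0.31, -0.47 and -0.46, and all 4 intervals included 0. Trav17 rested on KO 1 and KO 4: its shares were 2.64, 1.84, 1.98 and 2.69% in KO 1 to 4, against 1.73, 1.49, 2.15, 2.12 and 1.74% in WT 1 to 5, and its usage log2 fold change was 0.05 without those KO libraries (edgeR adjusted p = 0.9497). Without them Trav10, Trav7-3 and Trav6-5 had 0.59, -0.56 and -0.65.

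Shares did not overlap between the genotypes for 2 of the 77 tested segments, Trbv13-2 and Trav14n-3. In CPM, 3 of 77 did not overlap: Trav9-2 was higher in all KO libraries, and Trbv3 and Trav14n-3 were lower. Over all 12738 tested genes, 9.1% had CPM values that did not overlap.

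The segments of 2 invariant receptors were read from their own rows. Trav11 encodes the V part of the invariant alpha chain of NKT cells, and its row was listed at 0 in all 9 libraries, against 17803 Trav counts in all. A count of 0 allows up to 0.0169% of those counts, but the row has no window of its own and is identical to Trav11d over the last 120 bases, so reads of the segment could go uncounted. The pseudogene row Trav11n held 21 counts over the 9 libraries. Trav1, used by the invariant alpha chain of MAIT cells, took 0.951% ± 0.196 of Trav counts in KO and 0.955% ± 0.518 in WT mice. Its usage log2 fold change was 0.00 with a 95% interval of -0.82 to 0.82.

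Position along the alpha locus was read because segments near the J genes can be joined in early rounds and distant ones in later rounds. The Trav rows were split by position into 3 blocks of 28 or 29. The block nearest to the J segments took 44.9% ± 2.06 of Trav counts in KO and 43.2% ± 1.96 in WT mice. The middle block took 38.5% ± 1.97 in KO and 39.8% ± 1.39 in WT mice, and the farthest block 16.6% ± 0.951 in KO and 17.0% ± 1.42 in WT mice. Each of the 3 differences was smaller than the SD of at least 1 of its groups. Rows of the nearest, middle and farthest block had medians of 69.5%, 40.4% and 50.7% of windows of their own. The blocks therefore differ in how well their reads can be placed, and the part of this in the block shares was not tested. Rows with no copy letter took 79.6% ± 1.147 in KO and 78.7% ± 1.24 in WT mice, d copies 8.90% ± 0.314 in KO and 8.88% ± 0.560 in WT mice, and n copies 11.5% ± 1.12 in KO and 12.4% ± 1.01 in WT mice. Median percents of windows of their own were 66.4% for rows with no letter, 31.4% for d copies and 49.1% for n copies. Annotated pseudogenes took 0.461% ± 0.0428 of Trbv counts in KO and 0.434% ± 0.0594 in WT mice. For Trav they took 1.196% ± 0.240 in KO and 1.164% ± 0.246 in WT mice.

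Diversity was summarised as the effective number of segments, the number of equally used segments that would give the same Shannon entropy. For Trbv it was 15.98, 16.02, 15.85 and 15.74 in KO 1 to 4, against 15.97, 15.91, 15.95, 15.89 and 15.84 in WT 1 to 5. For Trav it was 50.2, 49.1, 52.0 and 49.6 in KO 1 to 4, against 51.1, 50.2, 51.1, 51.3 and 49.7 in WT 1 to 5. Counted by row, groups overlapped at both loci, and the means differed by less than 1 SD of either group. Trbv means were 15.9 ± 0.128 in KO and 15.9 ± 0.0512 in WT mice. Trav means were 50.2 ± 1.23 in KO and 50.7 ± 0.716 in WT mice. Trav rows summed by family gave 13.73 to 14.48 in KO and 13.37 to 14.06 in WT libraries. These groups overlapped, but the KO mean was higher by more than the SD of either group (0.329 in KO and 0.268 in WT mice). Between 24 and 25 Trbv rows had at least 1 count in each library of either genotype, and 72 to 76 Trav rows in KO and 71 to 76 in WT libraries. The 5 most counted Trbv segments of a library held 47.2% ± 0.659 of Trbv counts in KO and 47.0% ± 0.320 in WT mice.

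**Figure D4:**
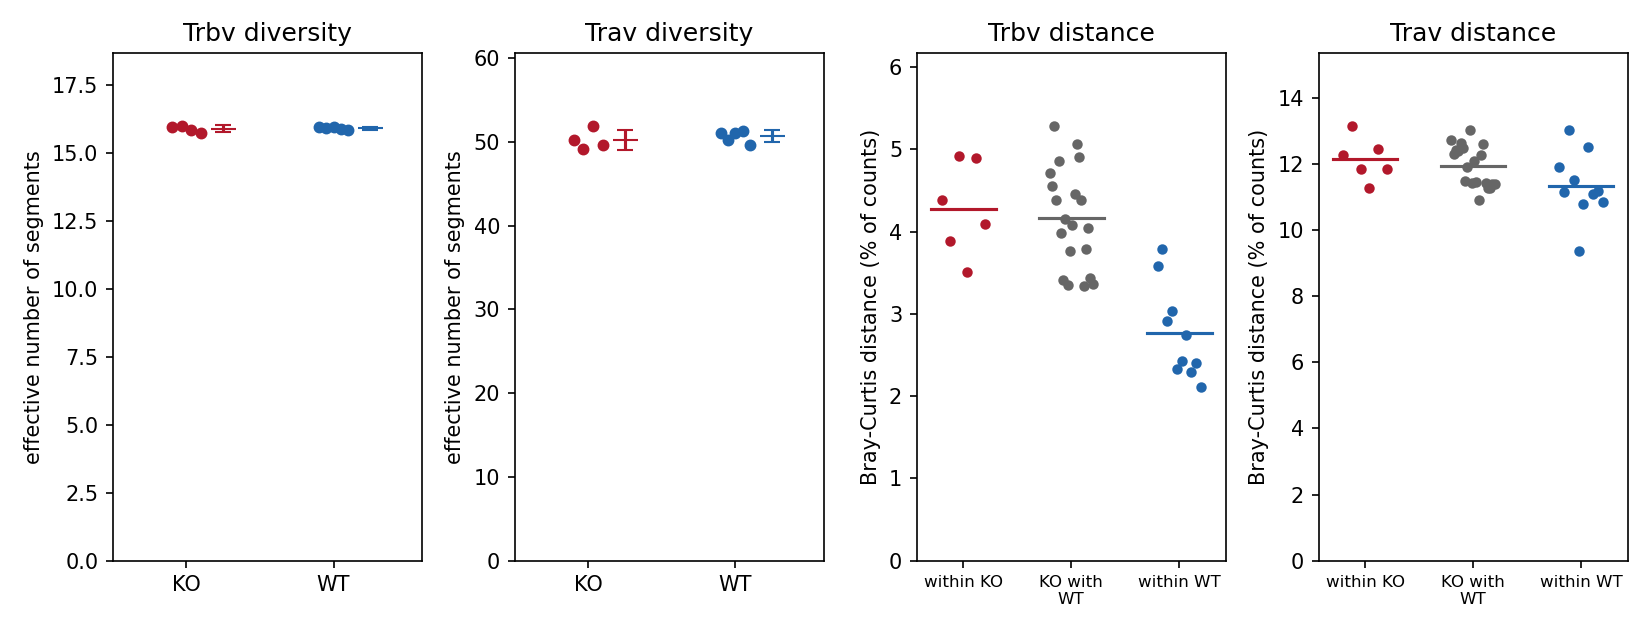
Effective number of segments per library with mean ± SD (left 2 panels) and Bray-Curtis distance between pairs of libraries as a percent of locus counts with the mean as a line (right 2 panels), for Trbv and Trav. KO and WT libraries overlap in diversity, and 10 pairs of WT libraries average 2.76% apart in Trbv usage, below the 6 KO pairs at 4.28% and the 20 mixed pairs at 4.17%.

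Mice of the KO group differed more from each other in beta usage than WT mice did. The Bray-Curtis distance, the percent of counts that would have to be reassigned to make 2 profiles equal, averaged 4.28% among the 6 KO pairs (3.50 to 4.92%), 4.17% among the 20 mixed pairs (3.33 to 5.29%) and 2.76% among the 10 WT pairs (2.11 to 3.79%). The range of KO pairs lay inside that of mixed pairs. After thinning to equal Trbv counts the averages were 4.25% among KO, 4.08% among mixed and 2.87% among WT pairs. Chi-square per degree of freedom, which is 1 for counting noise alone, was 2.54 among KO and 1.32 among WT libraries for Trbv. Of the 20 tested Trbv segments, 15 had a larger SD of share in KO than in WT mice, beside 30 of the 57 tested Trav segments. Shares within a locus depend on each other, and the same count over all genes was not made. The pair KO 2 and KO 3, without the libraries rich in plasma cell transcripts, was 3.50% apart, inside the range of WT pairs and above their average. Without KO 1 and KO 4 the mixed pairs still averaged 4.155%. The cause of the wider spread was not tested. For Trav the distances were alike, at 12.15% among KO, 11.96% among mixed and 11.36% among WT pairs, and chi-square per degree of freedom was 1.48 in KO and 1.38 in WT libraries. Pairs share libraries and are not independent, so these are given as a description.

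The level of the loci, as opposed to usage within them, differed by a few percent. Summed Trbv rows had 533, 552, 552 and 516 CPM in KO 1 to 4, against 556, 570, 601, 580 and 562 CPM in WT 1 to 5. Every KO library was below every WT library, and the mean was 6.2% lower. Without KO 1 and KO 4 the KO mean was 3.9% lower. Summed Trav rows had 124.7 ± 5.68 CPM in KO and 120.1 ± 4.62 CPM in WT mice, with overlapping libraries.

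Trbv3 was the 1 segment of 77 called by abundance, that is by CPM rather than by share, beside 3.28% of all genes (1.4% higher and 1.88% lower in KO). It had 58.1, 57.7, 58.4 and 61.3 CPM in KO 1 to 4, against 68.4, 62.2, 69.8, 67.7 and 65.3 CPM in WT 1 to 5. KO libraries were all below WT libraries. It fell by 0.18 on the log2 scale (SE 0.04, 95% interval -0.28 to -0.08, edgeR adjusted p = 0.0469), close to the threshold. Its share of Trbv counts overlapped between the groups, and in usage it differed by -0.09 ± 0.05 (SE) on the log2 scale with an adjusted p of 0.334 by edgeR. Leaving out any 1 library other than WT 2 ended the abundance call, with edgeR adjusted p between 0.0627 and 0.129. Of the 20 tested Trbv rows, 15 had a negative log2 fold change of abundance, with a median of -0.09, beside 48.5% of all genes and a median of 0.01. For Trav, 24 of 57 were negative and the median was 0.06. Without KO 1 and KO 4 the medians were -0.02 for Trbv and -0.01 for Trav, and 11 of the 21 Trbv rows then tested were negative.

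The constant genes, to which the rearranged V segments are spliced, showed an uneven pair of chains. Trac, the alpha constant gene, had 909, 852, 847 and 895 CPM in KO 1 to 4, against 808, 819, 811, 753 and 773 CPM in WT 1 to 5. All KO libraries were above all WT libraries. Its log2 fold change was 0.14 ± 0.04 (SE, 95% interval 0.06 to 0.22), with an edgeR adjusted p of 0.0598 that missed the threshold and a DESeq2 adjusted p of 0.00392 that passed it. KO 1 and KO 4 had the highest Trac values. Over 18 alternatives of the fit the log2 fold change was 0.11 to 0.16, and 2 alternatives called Trac. Its adjusted p by edgeR, DESeq2 or limma-voom ranged from 0.00392 to 0.3065 among them.

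Trbc1, the first of the 2 beta constant genes, had 479, 460, 464 and 430 CPM in KO 1 to 4, against 500, 513, 534, 487 and 513 CPM in WT 1 to 5. All KO libraries were below all WT libraries, with a log2 fold change of -0.15 ± 0.04 (SE), an edgeR adjusted p of 0.0641 and a DESeq2 adjusted p of 0.00754. Over the 18 alternatives of the fit the log2 fold change of Trbc1 was -0.17 to -0.12, and 1 alternative called it. Trbc2, the second, had 887 ± 18.4 CPM in KO and 900 ± 17.0 CPM in WT mice, and its groups overlapped (log2 fold change -0.02, edgeR adjusted p = 0.779). Trbc1 and Trbc2 are near-identical copies, so the split of reads between them is uncertain. Trbc1 took 34.05% ± 0.979 of the counts of both in KO and 36.13% ± 0.926 in WT mice, and the groups overlapped. The sum of Trbc1 and Trbc2 was 1346 ± 32.0 CPM in KO and 1409 ± 23.8 CPM in WT mice, with no overlap.

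**Figure D5:**
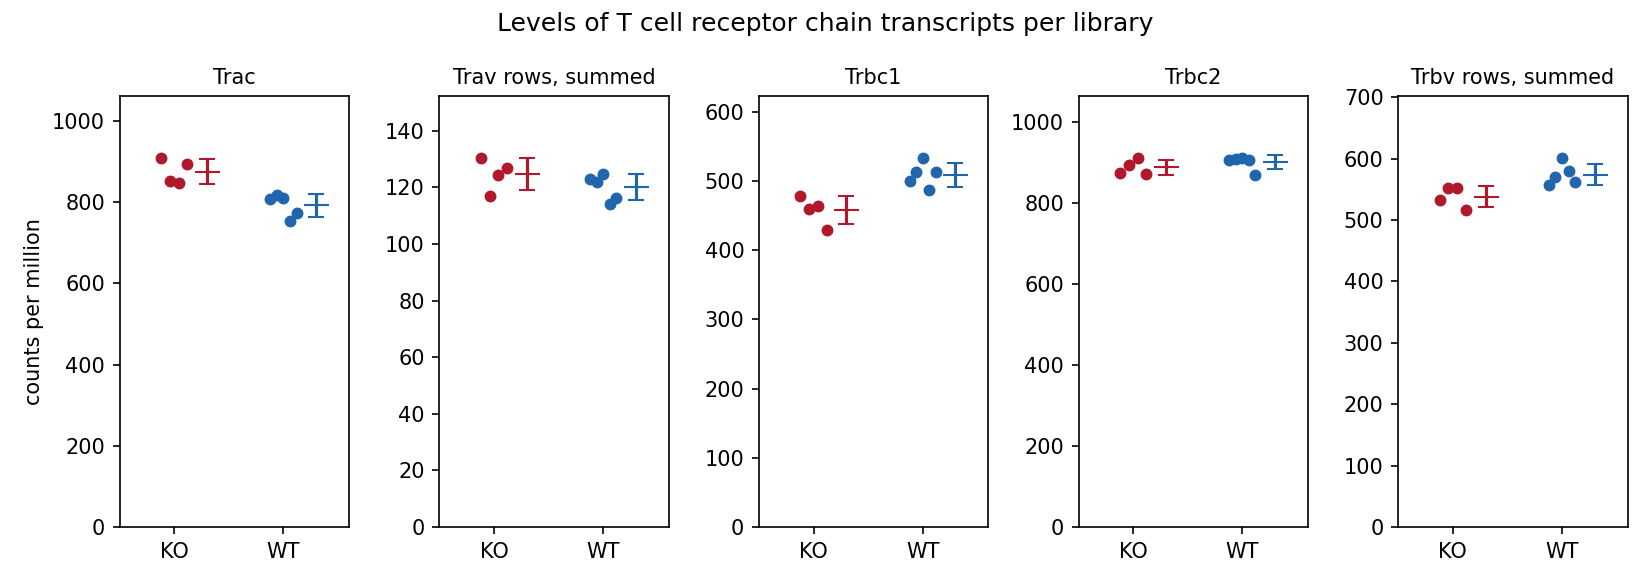
CPM (vertical axis, from 0) of Trac, summed Trav rows, Trbc1, Trbc2 and summed Trbv rows, with 1 point per library for KO (red, left) and WT (blue, right), and mean ± SD. Trac points are higher in all KO libraries, Trbc1 and summed Trbv points are lower, and Trav and Trbc2 points overlap.

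Relative to each other, the alpha constant gene stood higher against the beta constant genes in KO libraries. Trac counts per 100 Trbc1 and Trbc2 counts were 67.1, 62.9, 61.6 and 68.8 in KO 1 to 4, against 57.5, 57.6, 56.2, 54.0 and 55.9 in WT 1 to 5. The groups did not overlap. KO 2 and KO 3, with 0.124% and 0.161% of counts from immunoglobulin genes, also lay above all WT libraries. The part of plasma cell RNA in this ratio was not tested. Trav counts per 100 Trac counts were lower in every KO library, at 14.2 ± 0.400 in KO and 15.2 ± 0.195 in WT mice. Trbv counts per 100 Trbc counts overlapped, at 40.0 ± 0.613 in KO and 40.7 ± 0.913 in WT mice. Summed J segments overlapped at both loci, and the first J cluster, which splices to Trbc1, took 52.6% ± 1.38 of Trbj counts in KO and 52.8% ± 2.18 in WT mice.

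Few of the remaining receptor genes differed. The list held 104 rows of the table: D, J and constant segments, gamma and delta V segments, and CD3 and zeta chains. It also held Rag1, Rag2, Dntt and Ptcra. Of the 104 rows, 62 were tested and edgeR called 0, beside 3.28% of all genes. At an unadjusted p of 0.05 edgeR marked 7, beside 21.6% of all genes, and the median log2 fold change was -0.06. DESeq2 called 2 of them, Trac and Trbc1, beside 7.21% of all genes called by DESeq2. CPM values did not overlap for 3 of the 62, beside 9.1% of all genes: Trac, Trbc1 and Trbd1, the first D segment of the beta locus. Trbd1 is named because of this pattern, and had 10.2 ± 0.241 CPM in KO and 11.8 ± 0.504 CPM in WT mice. Cd3e, a signalling chain that carries the receptor to the surface, had 525 ± 15.1 CPM in KO and 497 ± 6.98 CPM in WT mice (log2 fold change 0.08, edgeR adjusted p = 0.193). Cd247, the zeta chain, had 340 ± 11.4 CPM in KO and 335 ± 8.73 CPM in WT mice (log2 fold change 0.02, edgeR adjusted p = 0.824).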

How the data were processed

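The authors deposited whole-number read counts per gene for 9 libraries, 1 per mouse, made with a stranded Illumina kit per the labels' protocols. STAR 2.7, the mm10 build and DESeq2 are named in the submitters' processing notes. The counting program, its strand setting, its rule for reads with several matches and the read length are not stated there, and they bear on near-identical V segments. No pair of libraries agreed within sampling noise (chi-square per degree of freedom 2.34 to 25.3 over 36 pairs).

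KO and WT counts were compared in R 4.3.3 by edgeR 4.0.16 (TMM scaling, quasi-likelihood test, filterByExpr with a minimum count of 10), with Benjamini-Hochberg adjustment over all 12738 genes. The abundance fit used library sizes for every gene. The usage fit replaced them by the locus total for V segment rows. DESeq2 1.42.0 and limma 3.58.1 served as alternatives, with other scalings and filters, replicate blocks, families, and libraries left out. The scripts were tested on simulated data. Positions, gene types and sequences came from GENCODE M21 on GRCm38, the same assembly as mm10. Named segments were the 10 most counted per locus, those called, the 3 with the smallest usage p per direction and locus, Trav11 and Trav1; named receptor genes were Trac, Trbc1, Trbc2, Cd3e, Cd247 and any called. The segments and lists were chosen with earlier results of these data known. Intervals of shares cover counting error only.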

Additional observations from a re-analysis of the deposited data

Results flagged for a closer look

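In 78 groups of 4 or 5 libraries tested for a single stray value at Dixon's 95% level, 6 were marked, and chance marks about 1 in 20. All 6 lay in WT mice. Trbv13-2, the segment with the highest KO share, was lowest in WT 3 at 11.97% of Trbv counts, against 12.5 to 12.7% in the other 4 WT libraries, which all still lay below the KO libraries. Trbv15 was highest in WT 1 at 7.978%, against 7.35 to 7.53% in the other 4. Trav4-4-dv10 was highest in WT 1 at 4.379% of Trav counts, against 3.55 to 3.63% in the other 4. Summed Traj rows were also highest in WT 1, at 62.46 CPM against 36.4 to 43.7 CPM. Trbc2 was lowest in WT 5 at 869.8 CPM, against 906 to 910 CPM in the others. Trbd1, a D segment of the beta locus, was highest in WT 4 at 12.71 CPM against 11.4 to 11.7 CPM, and its 4 KO libraries lay lower still at 9.94 to 10.5 CPM.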

How the results depend on the processing

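The count of 0 segments called by usage held under all 18 alternatives of the fit. Of 26 named segments with a usage value, 17 kept their sign under every alternative that tested them and 9 changed it under at least 1. Trav6-5 was tested in 17 of the 18. The single abundance call, Trbv3, was 0 with limma-voom, with no filter, with both replicate blocks and without KO 1 and KO 4, and 0 to 1 with 1 library left out. Its adjusted p over the alternatives was 0.0183 to 0.206, always with a negative log2 fold change. The receptor gene list had 0 calls, 2 with DESeq2 and 0 to 1 with 1 library left out, the call being Trac without WT 2 (adjusted p = 0.0449). The KO over WT difference in Trav effective number was -0.882%, ranged from -2.01 to -0.159% with 1 library left out, and was 2.75% when rows were summed by family. The difference by family was larger than the SD of either group. The cause of the change in sign was not tested. For Trbv it was -0.102% (-0.351 to 0.229% with 1 library left out). With 1 library left out, the difference was -7.05 to -4.97% for summed Trbv CPM and 2.24 to 5.96% for summed Trav CPM.

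The labels do not say that replicate numbers pair mice. Same-numbered libraries correlated at 0.099, -0.062, 0.100 and -0.067 by title number and 0.099, 0.087, 0.057 and -0.260 by the number in the library name, and no KO library correlated best with its own number. With the replicate block, 0 V segments were called by usage or abundance under either numbering. Each block also drops the WT library whose number has no KO partner. Over all genes, the title-number block, which drops WT 5, called 12 higher and 14 lower genes, against 41 and 76 without WT 5 and no block. The block by library-name number, which drops WT 2, called 236 and 220, against 335 and 362 without WT 2 and no block. With all 9 libraries and no block, edgeR called 178 and 240 and DESeq2 455 and 464.

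Alpha shares rest on 1745 to 2272 counts per library, and the median standard error of a usage change was 0.238 for Trav, against 0.073 for Trbv, on the log2 scale.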
